A study of Rattus norvegicus with 12 samples.

Results

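Dorsal root ganglia taken 3 h after a piece of the sciatic nerve had been cut out were compared with ganglia taken 0.5 h after the same operation. The comparison rests on the 3 arrays labelled 3 h and the 3 labelled 0.5 h, 6 of the 12 arrays of the series. The arrays of 6 h and 9 h, 3 each, entered the estimate of the spread, and their levels are given where a gene is followed over time. Male Sprague-Dawley rats of 180 to 220 g, 24 in all and 6 per time, were anaesthetised with trichloroacetaldehyde monohydrate, magnesium sulfate and sodium pentobarbital. A 1 cm piece of the left sciatic nerve was removed at mid-thigh, and the lumbar ganglia that supply it were collected. No group without injury is labelled, so anaesthesia, incision and nerve resection were shared by every array, and each difference is one between times after surgery. Nothing in the labels ties a rat to an array or tells whether RNA was pooled, so the p-values measure the spread between these arrays, which may in part be technical.

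Dorsal root ganglia hold the cell bodies of sensory neurons, each wrapped by satellite glia, with Schwann cells around the axons and vessels and immune cells between them. When the peripheral axon is cut, a burst of electrical activity and calcium entry reaches the cell body and switches on immediate early genes, many of which encode short-lived transcription factors and feedback inhibitors of the MAP kinase cascade. Slower signals carried back along the axon then induce regeneration-associated genes such as Atf3, Jun and Sox11. Surgery also raises circulating glucocorticoids, which act on target genes through a nuclear receptor present in neurons, glia and vessel cells.

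A level here is the log2 signal of a gene's probe minus the 75th percentile of its array, so that a difference of 1 is a 2-fold change. Of 21405 genes detected well above background on every one of the 12 arrays, 6262 (29.3%) differed between 3 h and 0.5 h at a limma adjusted p under 0.05, with 2909 (13.6%) higher and 3353 (15.7%) lower at 3 h. Most differences were small, with a median size of 0.37 among the called genes, and 35 rose but 442 fell by more than 1. The filter left out genes too dim to be detected at 0.5 h. These counts therefore cannot show whether large rises were rarer than large falls. The split between directions moved with the scaling, from 46.5% of calls higher here to 63.3% with median scaling and 35.4% with cyclic loess scaling. Under normexp, another correction for background, 1265 genes were called, 442 of them higher and 823 lower, and 423 (1.98% of genes tested) were called higher and 816 (3.81%) lower in both. The 3 h and 0.5 h arrays of a gene did not overlap for 9492 genes (44.3%), called or not. For scale, 16.4% of genes were called between 6 h and 3 h and 21.1% between 9 h and 3 h, with the 3 h arrays shared by all of these comparisons.

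The 0.5 h arrays stood apart. The scanner software called 63.2 to 67.5% of their probes well above background, compared with 82.3 to 85.3% elsewhere, and their negative control spots averaged 72.1 to 86.5 intensity units against 39.0 to 42.2 at 3 h. Among the 4281 dimmest genes tested 7.78% were higher and 23.3% lower at 3 h, and among the 4281 brightest 16.3% and 9.13%. The gene lists below are set against all genes tested, not against genes of like brightness. All 0.5 h arrays lay on 1 slide and all 3 h arrays on another, scanned on different days, so slide and scan day cannot be told apart from time. The filter kept only genes detected at 0.5 h, so a gene that was dim at 0.5 h and bright at 3 h is not among those tested. The 8 sensory neuron markers were all kept, with mean levels from -1.52 (Pou4f1) to 7.69 (Prph) at 0.5 h and from -1.43 to 7.52 at 3 h. Of these markers Scn10a was called higher at 3 h (0.37), though not under normexp, and the others were not called. Prph, the intermediate filament of peripheral neurons, averaged 7.69 ± 0.05 at 0.5 h (SD over 3 arrays, n = 3, as for every ± here) and 7.52 ± 0.07 at 3 h, and Avil, an actin regulator of sensory neurons, at 5.51 ± 0.22 and 5.59 ± 0.09. The leukocyte markers Ptprc and Cd3e and the endothelial marker Pecam1 were left out by the filter. In bulk tissue, fewer cells of a type and less RNA per cell cannot be told apart.

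The leading genes are those with the largest differences among genes with a gene name that were called the same way under both background corrections. The rule also required that their 3 h and 0.5 h arrays did not overlap. Other kept probes, where there were any, had to share the direction. Genes without another kept probe, among them Mageh1, Apold1 and Efnb1, met that last condition automatically. Leading genes that rose included Mapt, Mageh1, Aph1a and Sult1b1, beside Fkbp5 and Cdkn1a described further on. Lack of overlap was a condition for every leading gene, so it is no further result where it is mentioned. Mapt, which encodes the microtubule protein tau, stood at 2.70, 2.79 and 3.00 on the 0.5 h arrays and at 4.64, 4.36 and 4.63 on the 3 h arrays. The rise was 3.28-fold (log2 1.71, SE 0.34, limma adjusted p = 0.00424). At 6 h Mapt averaged 3.43 ± 0.21 and at 9 h 3.98 ± 0.89, where replicate 1 stood well above the other arrays at 3.35 and 3.58. A second probe of Mapt differed by 0.38 in the same direction. The probe reported lies on chromosome 10 from 93508449 to 93508508 in the older rat assembly rn4.

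Mageh1, a member of the MAGE family of ubiquitin ligase partners, had the largest rise under the rule for leading genes, from -2.09, -2.04 and -1.78 at 0.5 h to -0.26, -0.41 and 0.05 at 3 h (log2 1.76, SE 0.28, adjusted p = 0.00125 by limma). Its 6 h arrays lay between, at -1.02, -1.08 and -1.29. Aph1a, a subunit of the gamma-secretase protease, rose by 1.62 on the log2 scale, from 0.50, 0.33 and -0.46 to 1.78, 1.77 and 1.67. Its 3 h arrays lay close together and clear of the 0.5 h arrays, while a second probe of the gene differed by 0.31 and was not called. Dhx9, an RNA helicase, rose by 1.24 (SE 0.20), with its second probe at 0.24 and not called.

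Sult1b1, Rpe65, Adh1, Rin3 and Ube2q2l were also among the leading genes. Sult1b1, a sulfotransferase, went from -2.78, -3.27 and -2.71 to -1.18, -1.29 and -1.41, a 3.08-fold rise. At 6 h Sult1b1 was at -2.64 ± 0.46. Rpe65, the retinoid isomerase best known from the eye, was 2.58-fold higher at 3 h and averaged -2.04 at 0.5 h, -0.68 at 3 h, -1.88 at 6 h and -2.05 at 9 h, with every 3 h array above the arrays of the other times. Adh1, an alcohol dehydrogenase, rose by 1.01 (SE 0.25, limma adjusted p = 0.0137). Rin3, an exchange factor for endosomal Rab GTPases, rose by 1.12, and Ube2q2l, a ubiquitin-conjugating enzyme relative, by 1.33.

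**Figure D1:**
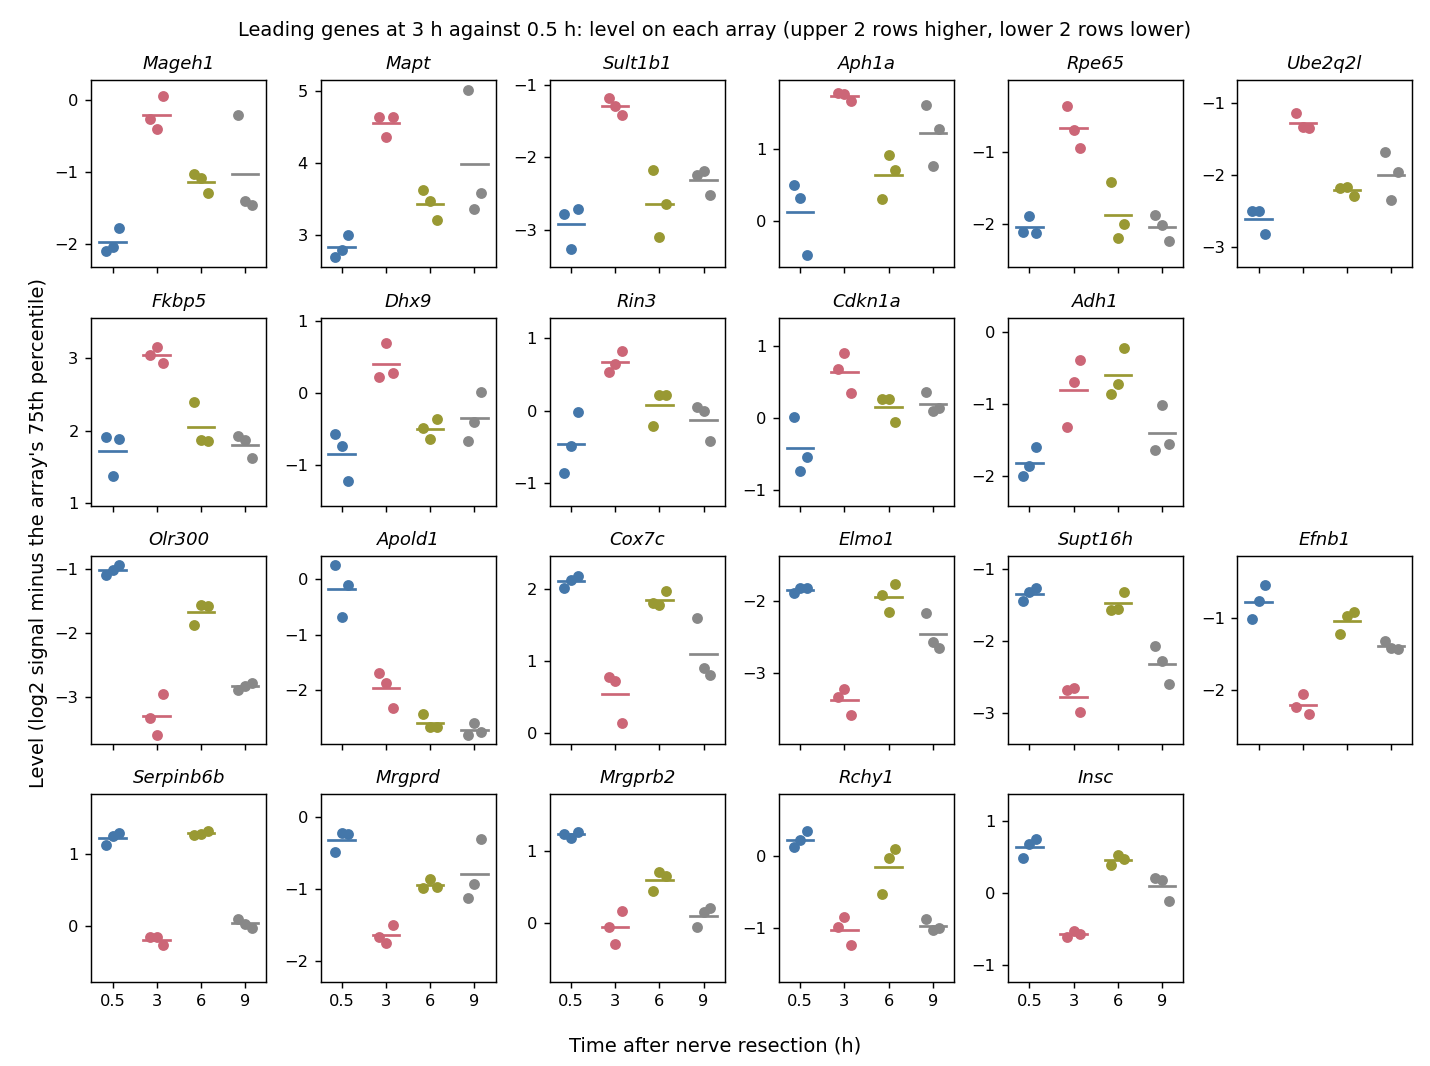
Level of 11 leading genes that rose and 11 that fell (log2 signal minus the array's 75th percentile) on each of the 3 arrays per time, with the mean as a line; each panel has its own axis range. By the rule of choice, the 3 h arrays lie above all 0.5 h arrays in the upper panels (Mageh1, -0.41 to 0.05 against -2.09 to -1.78). By the same rule they lie under them in the lower panels (Serpinb6b, -0.26 to -0.14 against 1.12 to 1.30).

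The leading genes that fell included Olr300, Mrgprd and Mrgprb2. Mrgprd, the receptor that marks a class of non-peptidergic nociceptors, stood at -0.49, -0.22 and -0.23 at 0.5 h. It was at -1.67, -1.75 and -1.50 at 3 h (log2 -1.33, SE 0.17, limma adjusted p = 0.000409). Mrgprb2, the related receptor of mast cells, went from 1.23, 1.18 and 1.26 to -0.05, -0.30 and 0.17. Both lay between these levels at 6 h, with Mrgprd at -0.94 ± 0.07 and Mrgprb2 at 0.60 ± 0.14. Olr300, named as an olfactory receptor, had the largest decrease of the leading genes, from -1.09, -1.01 and -0.93 to -3.34, -3.60 and -2.95, a level 4.89-fold higher at 0.5 h. It was at -1.67 ± 0.17 at 6 h and at -2.84 ± 0.06 at 9 h.

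Apold1, an early-response gene of vessel endothelium, fell by 1.78 on the log2 scale, from 0.25, -0.68 and -0.11 to -1.69, -1.88 and -2.32 (SE 0.22, limma adjusted p = 0.00025). It was lower still at 6 h (-2.58 ± 0.14) and 9 h (-2.72 ± 0.11). In each of the other leading decreases the 6 h mean was above the 3 h mean. Serpinb6b, an intracellular protease inhibitor, was at 1.23 ± 0.09 at 0.5 h, -0.18 ± 0.06 at 3 h, 1.29 ± 0.03 at 6 h and 0.04 ± 0.06 at 9 h. Elmo1, an activator of Rac in engulfment and migration, averaged -1.84, -3.37, -1.94 and -2.46 at the 4 times, and Supt16h, a subunit of the FACT histone chaperone, -1.35, -2.78, -1.48 and -2.32. For each of these 3 genes the 6 h arrays lay near the 0.5 h level. Their 9 h means lay between the 3 h and 0.5 h means. The 6 h arrays were scanned on the day of the 3 h arrays but on other slides. The part of slide and scan day in these levels was not tested.

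Efnb1, the membrane-bound guidance ligand ephrin-B1, fell by 1.43 (SE 0.12, limma adjusted p = 2.53e-05), from -1.02, -0.76 and -0.55 to -2.23, -2.06 and -2.34. Cox7c, a subunit of cytochrome c oxidase, fell by 1.55, from 2.00, 2.12 and 2.17 to 0.78, 0.73 and 0.13, and its second probe fell by 0.45. Other leading decreases were Rchy1, a ubiquitin ligase that targets p53, by 1.25 and Insc, an adaptor of spindle orientation, by 1.21. None of the leading genes lost its call when any 1 of the 12 arrays was left out. A second probe of Supt16h differed by -0.02 and was not called.

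Several immediate early genes were lower at 3 h than at 0.5 h, though the share that fell was not far from that of all genes. Of 45 members tested, 9 (20%) fell and 2 (4.4%) rose, against 15.7% and 13.6% of all genes, and 34 were not called. The median difference of the list was -0.05 against 0.02 for all genes, and with median scaling it was 0.02 against 0.09, with 4 members higher and 7 lower. The member with the largest difference was Gem, a small GTPase that restrains calcium channels and is induced by activity. Its levels were -3.10, -1.74 and -2.82 at 0.5 h and -5.58, -5.17 and -5.18 at 3 h, a level 6.79-fold higher at 0.5 h (log2 -2.76, SE 0.29, limma adjusted p = 0.000102). The groups did not overlap, and Gem stayed at -5.64 ± 0.06 at 6 h and -5.11 ± 0.31 at 9 h. Gem was dim at 3 h and was not called under normexp (-1.91). Its probe spans chromosome 5 from 26003029 to 26004574 in rn4.

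Egr1, a zinc finger factor of the first transcriptional wave, stood at 0.39, 0.23 and 0.77 at 0.5 h and at -0.63, -0.39 and -0.77 at 3 h, with no overlap (log2 -1.06, SE 0.18, adjusted p = 0.00208 by limma). Snf1lk, the salt-inducible kinase now called Sik1 and a textbook target of CREB, fell by 0.90 from 0.89, 0.70 and 0.72 to -0.26, -0.14 and 0.03. Dusp6, the phosphatase that switches off ERK, fell by 0.90 from 1.96, 1.80 and 1.86 to 0.76, 1.03 and 1.13. Egr1, Snf1lk and Dusp6 were called in every fit without 1 array and under normexp. Cyr61, a matrix signalling protein now called Ccn1, fell by 1.02, but it was not called under normexp (-0.95) and its call ended without 0.5 h replicate 1, 3 h replicate 1 or 3 h replicate 3.

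Btg2, an antiproliferative factor, and Dusp1, a phosphatase of p38 and JNK, fell by 0.53 and 0.48. Both carry a cyclic AMP response element, the site bound by CREB, in the 250 bases before the gene start, and these stretches are shown with that element (TGACGTCA) in capitals, 5′ to 3′, from RefSeq on assembly GRCr8. The stretch of Dusp1 is chr10:17184603-17184852 on the plus strand, and that of Btg2 is chr13:48087691-48087940 on the minus strand.
Dusp1: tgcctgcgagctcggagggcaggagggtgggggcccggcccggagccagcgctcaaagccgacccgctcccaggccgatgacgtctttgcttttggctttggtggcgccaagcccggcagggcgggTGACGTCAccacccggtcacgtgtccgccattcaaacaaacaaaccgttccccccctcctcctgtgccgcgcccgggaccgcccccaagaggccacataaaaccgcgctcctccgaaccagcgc
Btg2: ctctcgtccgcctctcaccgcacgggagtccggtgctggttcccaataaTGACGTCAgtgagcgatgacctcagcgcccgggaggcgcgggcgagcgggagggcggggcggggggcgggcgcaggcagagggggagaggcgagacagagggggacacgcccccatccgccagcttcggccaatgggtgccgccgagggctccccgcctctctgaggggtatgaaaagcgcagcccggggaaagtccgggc
The element, which reads the same on both strands, occurred in 466 of 27457 promoters of this length (1.7%). It was in 5 of the 34 tested immediate early genes that had a promoter entry (14.7%), and in 2 of the 6 lowered ones, namely these. The other carriers among them, Jund, Plk2 and Ier2, were not called. Ppp1r15a, of the list of endoplasmic reticulum and amino acid stress, carried the element and rose, so the letters went with no single direction. A match is a description of the letters, not evidence of binding. Dusp1 stood at -0.09, -0.45 and -0.28 at 0.5 h and at -0.75, -0.92 and -0.59 at 3 h, and Btg2 at 0.71, 0.56 and 0.83 and then at 0.18, 0.32 and 0.01. Neither gene's groups overlapped, and both were called under normexp. The call of Dusp1 ended without 0.5 h replicates 1 or 3 or 3 h replicates 1 or 2, and that of Btg2 without 0.5 h replicate 3 or 3 h replicate 3. Dusp1 went on to -1.39 ± 0.09 at 6 h, while Btg2 was at 0.61 ± 0.06 at 9 h.

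The other early genes gave no single direction. Fos, the classical activity marker, was at -1.05, -1.68 and -0.47 at 0.5 h and -1.47, -0.99 and -1.30 at 3 h, with overlapping groups (difference -0.18, SE 0.32, limma adjusted p = 0.71). Jun differed by -0.15 (SE 0.08, adjusted p = 0.209 by limma). Gadd45b, a stress sensor that acts on growth arrest and DNA demethylation, rose by 0.64 from 0.96, 0.53 and 0.64 to 1.31, 1.39 and 1.33, and its relative Gadd45a by 0.35, which was not called under normexp (0.38). The number of members that fell was 5 without 0.5 h replicate 1, 0.5 h replicate 3, 3 h replicate 1 or 3 h replicate 3. It was 11 without 0.5 h replicate 2, and the number that rose was 4 without 3 h replicate 2. Klf6 (-0.18) and Atf3 were the calls among immediate early genes that ended without most single arrays. Of the list's 5 members on the array that were not tested, Ier5 and Maff were above background on each 3 h array and on 0 arrays of 0.5 h, and Egr3 on each 3 h array and on 1 of 0.5 h.

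In the list of MAP kinase phosphatases, sprouty and RGS proteins, 7 of 29 members tested fell (24.1%) and 3 rose (10.3%), against 15.7% and 13.6% of all genes, with a median of -0.01. Under normexp 5 fell and 1 rose, and with 1 array left out 5 to 8 fell and 2 to 4 rose. Spry4, an inhibitor of receptor tyrosine kinase signalling, was at -0.40, -0.38 and -0.36 at 0.5 h and at -1.52, -1.62 and -1.59 at 3 h. The replicates lay close together at both times and the groups did not overlap, and the difference was -1.19 (SE 0.09, limma adjusted p = 9.08e-06). Dusp8, a phosphatase of stress kinases, fell by 0.66 and Dusp16, of the same class, by 0.51, and neither gene's groups overlapped. Rgs1, a regulator of G protein signalling of leukocytes, fell by 1.06 but was not called under normexp (-0.91). Dusp22, a phosphatase of JNK signalling, went the other way, from -0.39, -0.37 and -0.34 to 0.15, 0.12 and 0.16 (log2 0.51, SE 0.05, adjusted p = 5.74e-05 by limma). Rgs10 rose by 0.30 and was not called under normexp (0.32), and Rgs17 (0.23) and Rgs12 (-0.32) were calls that ended when single arrays of either time were left out. Of 8 further members on the array, Dusp2, Dusp4, Dusp7, Dusp9, Spred2 and Rgs6 were well above background on every 3 h array and on no 0.5 h array, so no direction can be given for them.

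**Figure D2:**
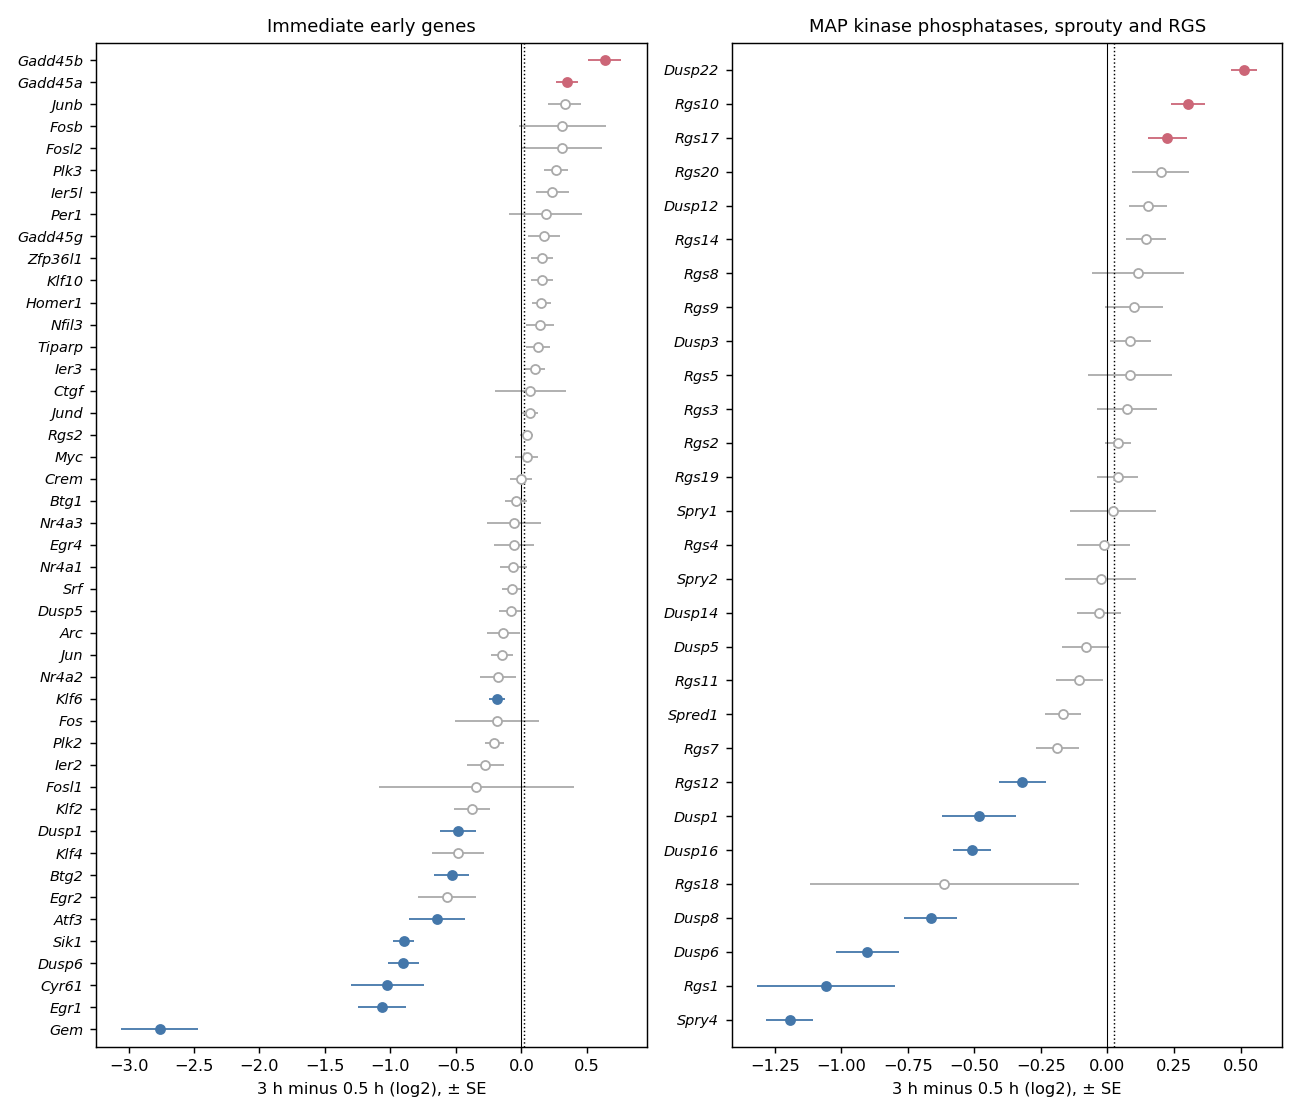
Difference between 3 h and 0.5 h (log2, point) with its standard error (bar) for immediate early genes (left, 45 genes) and for MAP kinase phosphatases, sprouty and RGS proteins (right, 29 genes). Filled points passed a limma adjusted p under 0.05, and the dotted line is the median of all genes (0.02). Gem (-2.76) and Spry4 (-1.19) lie farthest to the left, and most other members scatter around the dotted line.

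Many target genes of the glucocorticoid receptor rose, though fewer were called under normexp. Of 33 members tested, 15 (45.5%) rose and 2 (6.1%) fell, against 13.6% and 15.7% of all genes, and the median difference was 0.22. Fkbp5, the co-chaperone that restrains the receptor and is itself among its strongest targets, went from 1.92, 1.37 and 1.88 at 0.5 h to 3.05, 3.16 and 2.93 at 3 h. The groups did not overlap (2.51-fold, log2 1.33, SE 0.17, limma adjusted p = 0.000415), and both other probes of the gene rose, by 1.20 and 1.25. The level of Fkbp5 was 2.04 ± 0.31 at 6 h and 1.81 ± 0.16 at 9 h. Its probe lies on chromosome 20 from 6637600 to 6637659 in rn4.

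Zbtb16, a zinc finger repressor, went from -3.19, -3.90 and -2.97 to -1.57, -1.95 and -1.58 and was at -3.62 ± 0.34 at 6 h and -3.29 ± 0.50 at 9 h. Its rise of 1.65 (SE 0.29, limma adjusted p = 0.00222) did not pass under normexp (1.23). Cdkn1a, the cyclin-dependent kinase inhibitor p21, rose by 1.06, from 0.01, -0.73 and -0.54 to 0.67, 0.91 and 0.35. Zbtb16 and Cdkn1a had no overlap between the groups, and both kept their call without any 1 array. Ddit4, an inhibitor of the mTOR kinase complex, went from 0.17, 0.04 and 0.33 to 0.98, 0.76 and 1.00 and was at -0.32 ± 0.26 at 6 h. Arrdc2, an arrestin-related adaptor, went from -3.68, -4.36 and -4.01 to -2.98, -3.30 and -3.10. Its groups did not overlap, but the rise of 0.89 did not pass under normexp (0.58).

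Transcription factors and metabolic enzymes of the list rose as well, and are named here after their values were seen. Klf9, a Krüppel-like factor, rose by 0.52 and its second probe was higher too, and Cebpb, a leucine zipper factor of inflammation and metabolism, rose by 0.72. Angptl4, an inhibitor of lipoprotein lipase, rose by 0.68 from -0.28, -0.50 and -0.53 to 0.31, 0.12 and 0.31, and Pnpla2, the lipase that opens triglyceride breakdown, rose by 0.58. Of these 4 genes, Angptl4 was also called under normexp. Tsc22d3, known as GILZ and a classical glucocorticoid target, averaged 4.76 ± 0.12 and then 5.07 ± 0.06, without overlap. Its rise of 0.31 ended without 0.5 h replicates 2 or 3 or 3 h replicates 1 or 3, while its second probe rose by 0.58. Calls of Klf15 (0.66), Mt1a (0.61), Sult1a1 (0.54), Mt2A (0.53) and Mertk (0.43) also ended in some of the fits that left out 1 array.

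Not every classical target moved. Sgk1, a kinase of ion transport that glucocorticoids and injury induce, was at 1.59, 0.84 and 1.10 at 0.5 h and at 1.09, 1.10 and 0.99 at 3 h, with overlapping groups (difference -0.11, SE 0.16, limma adjusted p = 0.63). Per1, a clock gene and target, differed by 0.19 (SE 0.28, adjusted p = 0.655 by limma). The receptor itself, Nr3c1, was at 1.32, 1.29 and 1.02 and then at 1.00, 1.06 and 0.87, a difference of -0.24 that did not pass (adjusted p = 0.0536 by limma). Txnip, an inhibitor of thioredoxin, fell by 0.66, a call that ended without 0.5 h replicate 1, 3 h replicate 1 or 3 h replicate 3. Dusp1, the other member that fell, is described above. The full palindromic glucocorticoid response element, searched without mismatches, was found in 0 of the 27 promoters of tested members and in 1 of all 27457, which says only that those letters are not in those windows.

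**Figure D3:**
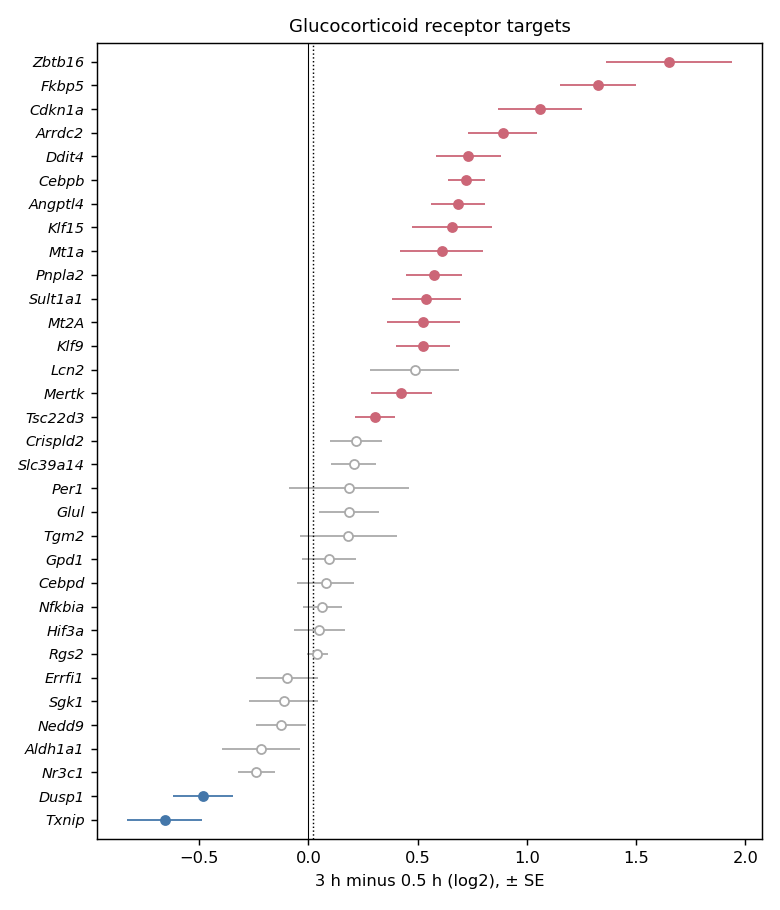
Difference between 3 h and 0.5 h (log2, point) with its standard error (bar) for the 33 glucocorticoid receptor targets tested; filled points passed a limma adjusted p under 0.05. Zbtb16 (1.65), Fkbp5 (1.33) and Cdkn1a (1.06) lie farthest to the right, Txnip (-0.66) and Dusp1 (-0.48) to the left, and the dotted line is the median of all genes (0.02).

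The number of glucocorticoid receptor targets that rose was 14 to 15 under quantile, median and cyclic loess scaling. Under normexp 4 rose, and with 1 array left out 10 to 15 did, the lowest without 0.5 h replicate 2 or 3. The number that fell was 0 without 0.5 h replicate 1 or 3 h replicate 1, and 1 without 3 h replicate 2 or 3. RNA of other tissues differed between the same arrays. All 30 tested genes of the skeletal muscle list were higher on average at 3 h, with a median of 1.09, but 0 were called, and all 15 adipocyte genes were higher with a median of 0.33 and 1 call (Lipe, 0.27). Without 3 h replicate 3 the adipocyte calls were 6, and without 0.5 h replicate 1 or 3 h replicate 1 they were 0. The mean of the muscle genes, centred over the 12 arrays, was -1.03, -0.84 and -0.27 at 0.5 h and 1.03, 0.81 and -1.01 at 3 h. The adipocyte mean was -0.45, -0.53 and -0.36 and then 0.55, 0.46 and -0.73. Muscle and fat genes were thus low on 3 h replicate 3 and high on the other 3 h arrays. The mean of the glucocorticoid receptor targets was 0.29, 0.30 and 0.26 on the same 3 h arrays and 0.15, -0.24 and -0.06 at 0.5 h. The part of muscle and fat RNA in these differences was not tested.

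**Figure D4:**
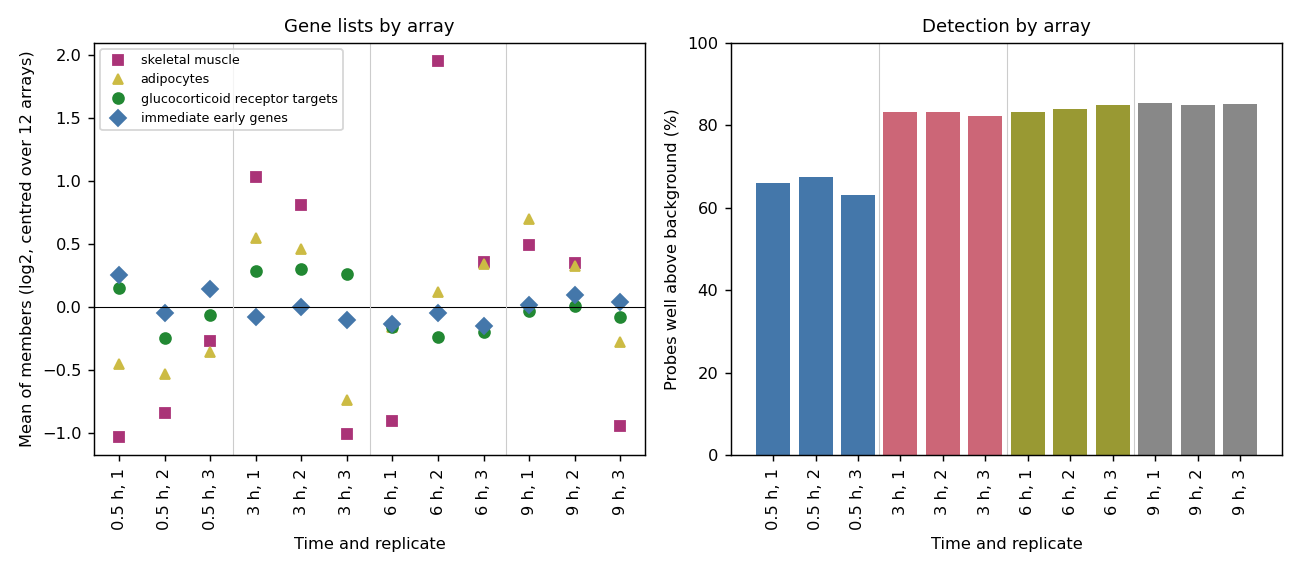
Left, mean level of 4 gene lists (log2, each gene centred over the 12 arrays) on every array by time and replicate; right, share of probes well above background (%) on the same arrays. Skeletal muscle genes range from -1.03 on 0.5 h replicate 1 to 1.95 on 6 h replicate 2, while glucocorticoid receptor targets lie at 0.26 to 0.30 on the 3 h arrays; detection is 63.2 to 67.5% at 0.5 h and at least 82.3% elsewhere.

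Nerve injury and regeneration genes were called at shares near those of all genes. Among them 4 of 36 rose (11.1%) and 5 fell (13.9%), against 13.6% and 15.7% of all genes, with a median of -0.01. Ankrd1 and Cckbr, which the filter left out, were well above background on every 3 h array and on no 0.5 h array, so no direction can be given for them. Without 0.5 h replicate 1, 0.5 h replicate 3 or 3 h replicate 1, 2 rose and 2 fell. Atf3, the injury-induced factor of axotomised neurons, was at 1.82, 1.19 and 2.17 at 0.5 h and at 0.86, 1.30 and 1.10 at 3 h. The groups overlapped, and its fall of 0.64 (SE 0.21, limma adjusted p = 0.046) lost its call in 10 of the 12 fits that left out 1 array. At 9 h Atf3 was at 3.63, 3.40 and 3.64. Sox11, a regulator of neuronal growth, differed by -0.21 at 3 h (SE 0.16, adjusted p = 0.377 by limma), and Gap43, a growth cone protein, by 0.15 (SE 0.08, adjusted p = 0.197 by limma). Jun and Sox11 were at 3.62 ± 0.07 and -2.52 ± 0.10 at 9 h, against 2.90 ± 0.11 and -4.27 ± 0.27 at 3 h.

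Stat3, the factor through which injury cytokines act, fell by 0.53 on the reported probe, from 2.89, 2.95 and 2.91 to 2.42, 2.50 and 2.23, while its second probe rose by 0.42, so the direction for the gene is unsettled. Socs3, the feedback inhibitor of that pathway, fell by 0.45, a call that ended without 0.5 h replicates 1 or 3 or 3 h replicates 1 or 2. Among the IL-6 family, STAT3 and SOCS genes 3 of 25 rose (12%) and 2 fell (8%), against 13.6% and 15.7% of all genes. Jak2, the kinase upstream of Stat3, rose by 0.27 and was not called under normexp (0.28). In that list 1 rose without 0.5 h replicate 3 or 3 h replicate 3. Ccl2, the chemokine that draws monocytes, was at 2.71, 2.69 and 2.67 and then at 2.48, 2.55 and 2.28, a difference of -0.25 that did not pass (limma adjusted p = 0.0508). It reached 3.10 ± 0.12 at 6 h and 3.73 ± 0.12 at 9 h. In the list of NF-kappaB, cytokines and chemokines 3 of 31 rose (9.7%) and 4 fell (12.9%), also under the shares of all genes. Without 0.5 h replicate 3 the counts were 0 and 2. Nfkbiz, an atypical inhibitor of NF-kappaB, fell by 0.46 but was not called under normexp (-0.43). Cxcl10, an interferon-induced chemokine, fell by 0.89, a call lost without 0.5 h replicates 1 or 3, 3 h replicates 1 or 3 or 6 h replicate 3. It was also the single call among 33 interferon response genes, and among leukocyte genes 1 of 23 was called, Cd3d, which fell by 0.60.

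Core clock genes were called in both directions. Per2, a repressor of the clock, fell by 0.65 from 0.21, -0.10 and 0.07 to -0.42, -0.76 and -0.58 (SE 0.13, limma adjusted p = 0.0039) and was at 0.41 ± 0.03 at 6 h. Nr1d1, the nuclear receptor REV-ERB alpha, stood at -1.32, -1.37 and -1.32 and then at -0.58, -0.65 and -0.48. Its groups did not overlap, but the call (0.77, SE 0.23, adjusted p = 0.0278 by limma) ended without any 1 of the 0.5 h arrays or without 3 h replicates 1 or 3, and at 9 h its arrays were at -3.00, -2.06 and -3.18. In all 3 of 17 clock genes rose (Nr1d1, Nr1d2, Arntl) and 3 fell (Per2, Timeless, Cry1), 17.6% each way against 13.6% and 15.7% of all genes, and of these Per2 alone kept its call in every fit without 1 array. Without 0.5 h replicate 2, 0 clock genes rose. Under normexp 0 rose and 1 fell (Per2), with Nr1d1 at 0.64 and Nr1d2 at 0.25. No label gives the time of day at which ganglia were taken.

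Among potassium channels 11 of 51 (21.6%) fell and 4 (7.8%) rose, against 15.7% and 13.6% of all genes. Kcnh2, the HERG channel that brakes firing, was at 1.75, 1.96 and 2.05 at 0.5 h and at 0.89, 0.82 and 0.60 at 3 h. There was no overlap, and the difference was -1.15 (SE 0.12, limma adjusted p = 0.000107). Kcnj3, the G protein-gated inward rectifier GIRK1, fell by 0.85 from 2.02, 1.99 and 2.13 to 1.28, 0.97 and 1.35. Kcns2, a modifier subunit, fell by 1.08 and was not called under normexp (-0.78). Counts of potassium channels called varied from 1 higher and 11 lower without 3 h replicate 1 to 10 higher and 8 lower without 3 h replicate 2. With median scaling 8 rose and 8 fell, and under normexp 0 rose and 3 fell.

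Genes of the sensory channels and receptors themselves showed no common direction. In all 7 of 60 rose (11.7%) and 5 fell (8.3%), against 13.6% and 15.7% of all genes. Without 3 h replicate 2 the count of rises was 17. Scn10a, the sodium channel Nav1.8 of nociceptors, was at 4.68, 4.75 and 4.66 and then at 5.14, 4.94 and 5.11 (log2 0.37, SE 0.08, limma adjusted p = 0.00526), but it was not called under normexp (0.38). Trpa1, the irritant receptor, rose by 0.50 and was not called under normexp (0.44). Trpv1, the heat and capsaicin receptor, differed by 0.20 (SE 0.11, adjusted p = 0.202 by limma). Tmem16a, the calcium-activated chloride channel now called Ano1, fell by 1.93 from -2.79, -2.75 and -2.93 to -4.70, -5.08 and -4.49 and was not called under normexp (-1.39). Cnr1, the cannabinoid receptor, fell by 0.54 on the reported probe, its second probe differed by 0.21 the other way, and it was not called under normexp (-0.48).

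Among neurotransmitter receptor genes 13 of 51 (25.5%) rose and 1 fell, against 13.6% and 15.7% of all genes. Gria4, an AMPA receptor subunit, went from -2.67, -2.33 and -2.53 to -1.61, -1.93 and -1.61, without overlap, and its second probe rose by 0.34. Grin1, the obligate NMDA receptor subunit, rose by 0.48, and its second probe rose by 0.42. Neither Gria4 (0.62) nor Grin1 (0.47) was called under normexp, and 2 members rose and 0 fell there. In all 5 members rose without 0.5 h replicate 1 or 3 h replicate 1. Of 28 sensory neuropeptide genes 3 were called. Chga, a granin of secretory vesicles, fell by 0.67 from 3.12, 3.40 and 3.37 to 2.74, 2.67 and 2.47, while a second probe differed by -0.01, and Scg2, another granin, rose by 0.35. Calca, the precursor of the pain peptide CGRP, differed by 0.12 (SE 0.08, limma adjusted p = 0.279), and its other probes were called in opposite directions, at -0.58 and 0.31.

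Several stress and redox genes rose. In the list of endoplasmic reticulum and amino acid stress 8 of 36 rose (22.2%) and 2 fell (5.6%), against 13.6% and 15.7% of all genes. Slc7a5, the carrier of large neutral amino acids, went from -1.09, -1.29 and -1.75 to -0.50, -0.55 and -0.41, and the 3 h arrays lay together above all 0.5 h arrays (log2 0.89, SE 0.16, limma adjusted p = 0.00219). Pdia3, a disulfide isomerase of the endoplasmic reticulum, rose by 0.63, and Psph, the last enzyme of serine synthesis, fell by 0.64. Chac1, which degrades glutathione and is a target of the amino acid response, rose by 0.42 from 0.56, 0.57 and 0.55 to 1.06, 0.92 and 0.96. It is shown because it pairs a call with the letters TTGCATCA, a core of the amino acid response element, in the 250 bases before its start (RefSeq, GRCr8, chr3:126795881-126796130, plus strand, 5′ to 3′, the element in capitals).
Chac1: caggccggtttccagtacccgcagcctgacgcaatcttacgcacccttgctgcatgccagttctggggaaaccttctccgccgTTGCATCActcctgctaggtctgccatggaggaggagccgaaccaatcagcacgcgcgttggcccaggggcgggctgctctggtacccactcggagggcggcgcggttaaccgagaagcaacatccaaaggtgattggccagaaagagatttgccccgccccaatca
Either strand of that core was found in 180 of 27457 promoters (0.656%) and in 6 of the 30 tested list members with a promoter entry (20%), namely Chac1, Aars, Nupr1, Mars, Herpud1 and Nars. Chac1 rose and Nars, an aminoacyl-tRNA synthetase, fell (-0.42), while the others were not called, so the letters went with no single direction. Slc7a5, Pdia3, Ddit4, Chac1, Psph and Nars were called under normexp too.

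Among NRF2 targets and glutathione genes 13 of 38 rose (34.2%) and 3 fell (7.9%), against 13.6% and 15.7% of all genes, and the count of rises was 6 without 3 h replicate 1 and 3 under normexp. Gclm, the modifier subunit of the rate-limiting enzyme of glutathione synthesis, was the extreme of the list and was dim at 3 h. It fell from -4.15, -3.94 and -4.01 to -6.32, -6.22 and -6.63 (log2 -2.36, SE 0.15, limma adjusted p = 3.22e-06), was at -3.85 ± 0.26 at 6 h and at -5.86 ± 0.17 at 9 h, and was not called under normexp (-1.20). Sqstm1, the autophagy receptor p62, rose by 0.47, and its other 3 probes differed in the same direction. Gstm2, a glutathione transferase, rose by 0.47 and Prdx6, a peroxiredoxin, by 0.44. Heat shock proteins and co-chaperones had 8 of 35 higher (22.9%) and 1 lower (2.9%), but 2 higher without 0.5 h replicate 1 or 3 h replicate 1 and 4 higher and 4 lower with cyclic loess scaling, and the probes of Hspa4 were called in opposite directions (0.43 and -0.70). Slc2a1, the glucose transporter GLUT1, rose by 0.57 from 2.90, 2.76 and 2.76 to 3.39, 3.37 and 3.38, and 11 of 41 glycolysis and hypoxia genes rose (26.8%) while 2 fell (4.9%). Without 0.5 h replicate 3 or 3 h replicate 1 the count of glycolysis and hypoxia genes that rose was 5.

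Ribosomal, respiratory chain and proteasome genes were called in both directions, more of them higher than lower in the main fit. Among ribosomal proteins 23 of 74 rose (31.1%) and 2 fell (2.7%), against 13.6% and 15.7% of all genes. Those shares varied with brightness, and among the 4281 brightest genes tested they were 16.3% and 9.13%. The rises were at most 0.38 (Rpl10a), and Rps26 fell by 1.17 and Rpl34 by 0.66. The count of ribosomal proteins that rose was 13 with quantile scaling, 14 with cyclic loess scaling and 2 under normexp. In oxidative phosphorylation 15 of 65 rose (23.1%) and 5 fell (7.7%), 12 and 10 with cyclic loess scaling and 8 and 4 without 3 h replicate 1. Proteasome subunits had 9 of 39 higher (23.1%) and 2 lower (5.1%), 6 and 5 with cyclic loess scaling and 5 and 1 without 3 h replicate 1. Gapdh differed by 0.14 (SE 0.06, limma adjusted p = 0.12) and Actb by 0.32 (SE 0.12, adjusted p = 0.0726 by limma).

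Markers of the supporting cells showed isolated differences. S100b, the calcium-binding protein of satellite glia and Schwann cells, fell by 1.03 from 1.07, 0.89 and 1.04 to 0.00, -0.01 and -0.09, was at 1.07 ± 0.15 at 6 h and at 0.10 ± 0.16 at 9 h. Pmp22, a myelin protein, fell by 0.39 and was not called under normexp (-0.52). Erbb2, the neuregulin co-receptor, fell by 1.09 from 0.31, 0.21 and 0.40 to -0.91, -1.24 and -0.20. In all 1 of 28 Schwann cell and myelin genes rose (3.6%) and 3 fell (10.7%), against 13.6% and 15.7% of all genes. The counts were 5 lower without 0.5 h replicate 2 and 3 higher without 0.5 h replicate 1. Of 21 satellite glia genes 4 rose (19%) and 1 fell (4.8%), and without 3 h replicate 1 the count of rises was 0. Nos3, the nitric oxide synthase of endothelium, rose by 0.82 from -2.26, -2.64 and -2.61 to -1.58, -1.65 and -1.84 and was not called under normexp (0.68). In all 6 of 24 endothelial and pericyte genes rose (25%) while 1 fell (4.2%). Of these 4 rose without 0.5 h replicate 3 or 3 h replicate 2, and 3 fell without 3 h replicate 2. With all arrays the member that fell was Kdr (-0.32), a call that ended without 0.5 h replicates 2 or 3 or 3 h replicate 3. Of the other endothelial markers, Cdh5 rose by 0.38 and Tek (0.04) was not called. Neither Kdr (-0.36) nor Cdh5 (0.07) was called under normexp. Gfap, the filament of reactive glia, was left out by the filter, being well above background on 11 of the 12 arrays.

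Further called genes came from other lists. Sirt5, a mitochondrial deacylase, fell by 1.02 from 1.61, 2.01 and 2.04 to 0.77, 1.05 and 0.77. Marcksl1, an actin-binding substrate of protein kinase C, fell by 0.97 from 1.28, 1.30 and 1.26 to 0.48, 0.44 and 0.01. Both were apart from their 0.5 h arrays without overlap. Ccnd1, the D-type cyclin of cell cycle entry, fell by 0.62 and was not called under normexp (-0.56), and its second probe fell by 1.12. Map2, a dendritic microtubule protein, fell by 0.72, while its second probe differed by -0.12 and was not called. In all 6 of 36 cholesterol and fatty acid synthesis genes fell (16.7%) while 2 rose (5.6%), against 15.7% and 13.6% of all genes. Bmf, a pro-death member of the Bcl2 family, rose by 0.73 and was not called under normexp (0.50), and its antagonist Bcl2 rose by 0.49 and was likewise not called there (0.28). Itga9, an integrin subunit that binds tenascin, rose by 0.65 from -1.16, -1.28 and -1.14 to -0.66, -0.34 and -0.62.

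**Figure D5:**
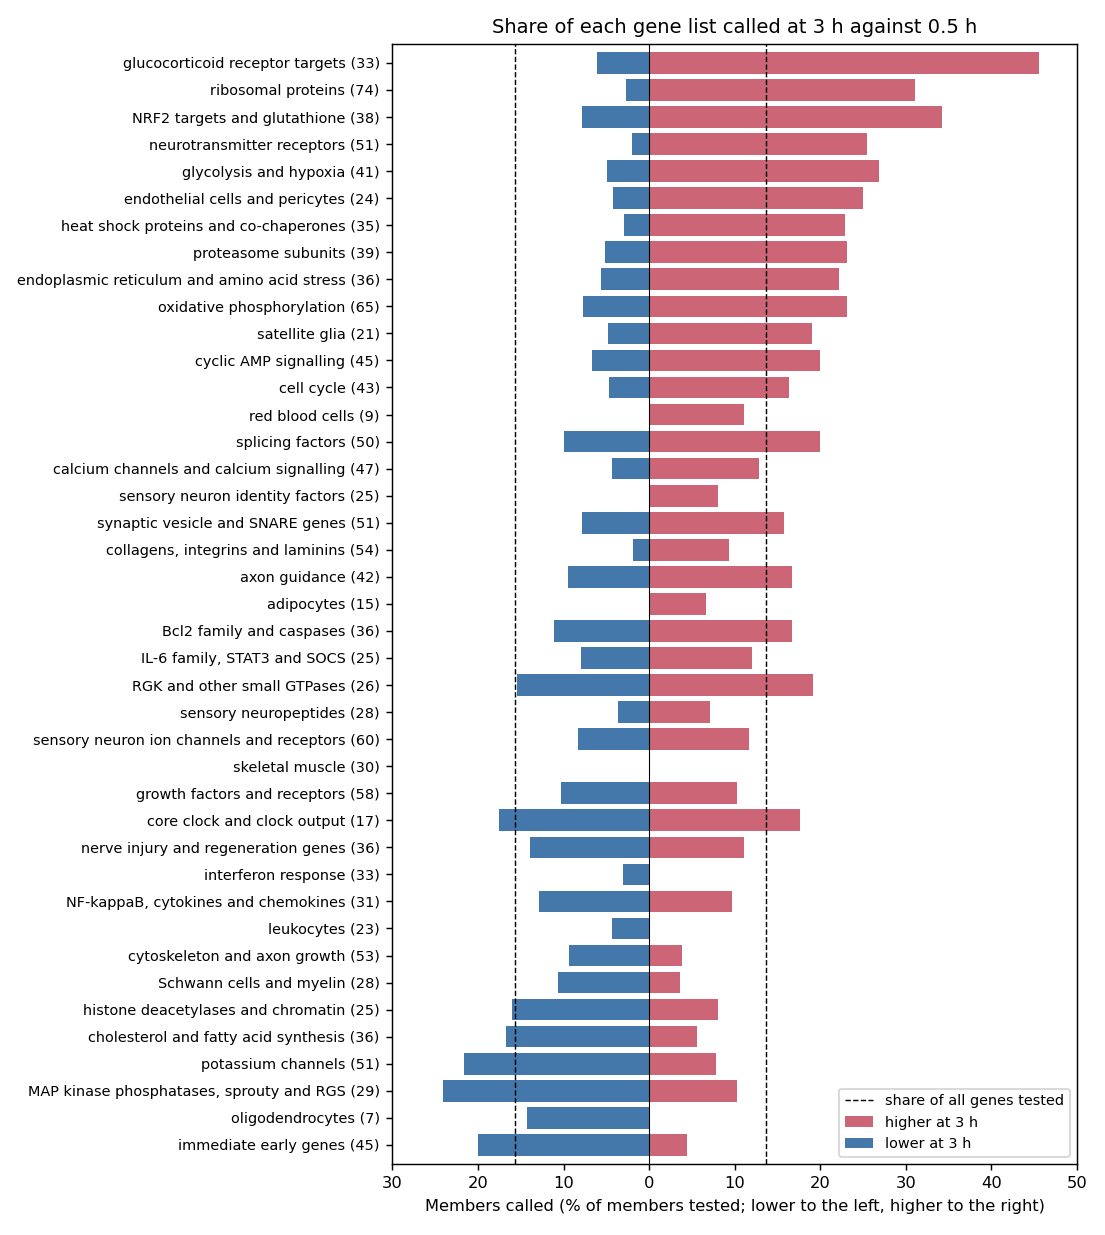
Share of tested members called higher (right) or lower (left) at 3 h against 0.5 h for each of the 41 gene lists, with the number tested in parentheses; dashed lines mark the shares of all genes (13.6% higher, 15.7% lower). Glucocorticoid receptor targets reach 45.5% higher, and the MAP kinase phosphatases, sprouty and RGS list 24.1% lower.

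Agreement between probes of a gene was limited. For called genes with another kept probe, 651 of 1014 other probes (64.2%) differed in the same direction, 254 were called in that direction and 87 against it. Among genes called under both background corrections the share was 145 of 221 (65.6%). Fkbp5, Cox7c, Ccnd1 and Sqstm1 were among those whose other probes all differed in the same direction, and Stat3, Hspa4 and Cnr1 among those where a probe went the other way.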

How the data were processed

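The deposited intensity values were used as the authors' scanner software, Agilent Feature Extraction 10.5.1.1 per the file headers, wrote them: 1-colour Cy3 signals after its own background correction. The authors' deposited value table held the same processed signals on these arrays. For each of the 12 arrays log2 of the processed signal minus the array's 75th percentile over non-control probes was taken, so the deposited intensity was scaled here and not by the authors. The filter kept 25350 of 41012 probes, those flagged well above background on each of the 12 arrays, and the brightest probe per gene name left 21405 genes, 10827 with placeholder names. Names are those of the array design, and 16336 probes (39.8%) matched a current RefSeq symbol. Coordinates of probes are the files' own, on rn4.

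Differences between 3 h and 0.5 h were fitted with limma 3.58.1 (lmFit and eBayes, R 4.3.3) on all 12 arrays, and a call is a Benjamini-Hochberg adjusted p under 0.05 over the 21405 genes. The alternative normexp used an offset of 50. On simulated data the fit recovered 61% of 100 genes changed by 0.5 on the log2 scale and 90% of 100 changed by 1, with 7 false calls. Slide and scan day coincide with time in the real arrays. The simulated count therefore gives no rate of false calls among the genes called here. The number of arrays limits the precision.

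The members, the 41 gene lists and the tests were chosen with earlier results of these data known. Genes were named by a rule. It took the 12 largest increases and 12 largest decreases called the same way under normexp, with no overlap of arrays. Other kept probes of these genes, where there were any, all had the same direction. Up to 4 called members of each list with the largest differences were added. So were 22 fixed genes, of which 21 were kept, and Actb and Gapdh. Any further gene was chosen after its values were seen, and some genes that the rule names are not reported here. Scaling, filters, the probe per gene, the arrays in the fit, the variance model, blocks and outlier spots were varied, and each array was left out in turn. The main fit did not pair arrays by replicate number. Same-numbered 0.5 h and 3 h arrays deviated with correlations of -0.18, -0.22 and -0.12, and differently numbered ones with 0.02 to 0.17. Deviations from a group's own mean cancel out within that group, so these values cannot decide whether the numbers pair the arrays.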

Additional observations from a re-analysis of the deposited data

Results flagged for a closer look

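Outside the genes tested, 5064 probes (4980 distinct names) passed as well above background on each 3 h array and on no array of 0.5 h, against 1 probe the other way round. The 0.5 h arrays, which shared 1 slide and scan day, had negative control spots with an SD of 15.67 to 18.60 intensity units, against 2.12 to 3.53 at 3 h, and the part of this in the gap was not tested. Ier5, Maff, Dusp2, Dusp4, Dusp7 and Dusp9 were among these genes.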

How the results depend on the processing

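Of the settings tried, normexp called 1265 genes in place of 6262, 442 higher and 823 lower. It ended 83 of the 151 named calls. Restriction to the brighter probes called 3498 genes, 1417 of them lower, out of fewer genes tested. Slide as a random block called 10529 genes, 5461 higher and 5068 lower; since slide and time coincide for these groups it does not separate them. Without 1 array the calls ranged from 4382 to 6403, the higher ones from 1708 (without 3 h replicate 1; 1923 without 0.5 h replicate 3) to 2970 and the lower ones from 2664 to 3433. The replicate block called 5584 genes, 2465 higher and 3119 lower, and the fit of the 6 arrays alone 4916. Normexp with its local background capped at each array's median, chosen after seeing the data, called 7263. With the mean of all probes of a gene, Calca was at -0.047, Hspa4 at -0.14 and Map1b at 0.04, all opposite to the reported probe. Without 1 array Sgk1 ranged from -0.28 to 0.10 (0.5 h replicates 2 and 1 left out) and Fos from -0.49 to 0.11 (0.5 h replicates 2 and 3 left out). Over all settings, 3877 values of named genes kept their direction and side of the threshold, 295 lost it and 26 gained it. These totals pool the settings and include named genes without a call. The leading genes had to be called under normexp, so they could not lose their call there. Apart from the fewer genes tested, the cause of the losses and gains was not tested. The high background of the 0.5 h arrays limits what can be said of weak probes.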
